A study of Mus musculus with 2 samples.

Results

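The collagen VI genes Col6a1, Col6a2 and Col6a3 and the collagen XVIII gene Col18a1 were examined in a list of c-Fos chromatin immunoprecipitation sequencing (ChIP-seq) peaks. The peaks were those with a centre in either of 2 windows of the mouse build mm9: chromosome 10 from 76000001 to 77000000, which holds Col6a2, Col6a1 and Col18a1, or chromosome 1 from 92600000 to 92800000, which holds Col6a3. There were 33 such peaks among the 10870 of the list, 22 on chromosome 10 and 11 on chromosome 1. The windows were chosen with the peaks of this list in view, so the number of peaks, their spacing and their scores are given as a description of 1 library, with no test. The centres of 4 of the 33 were inside a collagen gene, where the gene bodies make up 20.0% of the windows' length. Of the 33, 13 lay within 50 kb of a collagen gene start, taken as the high end of each gene. The stretches 50 kb to each side of the 4 starts took up a good part of the windows' 1200 kb. The count therefore does not show that peaks gather near the starts.

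The cells were mouse bone marrow-derived mesenchymal stem cells, stromal precursors of bone, cartilage and fat cells. They were knocked out for the tumour suppressor p53 and made to express c-Fos, and had been passaged less than 20 times. Chromatin from 50000000 fixed cells was precipitated with 10 ug of an antibody to c-Fos, whose specificity was not tested here. The series has 1 such library and 1 input library of DNA that was not precipitated, from cells of the same genotype, and the input was not analysed here. The labels do not say how c-Fos was expressed or whether the cells are 1 clone, and they list no cells without it, so no peak can be attributed to the added c-Fos.

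Collagen VI is a matrix protein of connective tissue that forms beaded microfilaments. Its alpha 1, alpha 2 and alpha 3 chains, the products of Col6a1, Col6a2 and Col6a3, assemble with each other into a triple helix before the microfilaments are built, and in cartilage the protein surrounds the chondrocytes. Collagen XVIII, the product of Col18a1, is a proteoglycan of basement membranes, and a fragment of its end, endostatin, is known as an inhibitor of blood vessel growth. c-Fos pairs with Jun proteins to form the transcription factor AP-1, whose usual DNA motif is TGACTCA; on the other strand this reads TGAGTCA. AP-1 sites are common at enhancers far from gene starts as well as at promoters.

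All 4 genes are on the minus strand in RefSeq, so their transcription runs towards lower coordinates, and each start was taken as the high end of its interval. The intervals in mm9 were 76058000 to 76087000 for Col6a2, 76171000 to 76189000 for Col6a1 and 76515000 to 76630000 for Col18a1 on chromosome 10, and 92663000 to 92741000 for Col6a3 on chromosome 1. These limits are approximate and rounded to 1 kb, so a distance from a start carries an error of about that size. Exons, introns and untranslated regions in mm9 were not analysed here. In RefSeq on GRCm38.p6 the genes on chromosome 10 lie in the same order.

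The promoters of Col6a3 and Col6a1 are shown because these were the starts with a peak nearby. They are the 250 bases before the RefSeq start (minus strand, GRCm38.p6), and capitals mark the AP-1 motif.
Col6a3: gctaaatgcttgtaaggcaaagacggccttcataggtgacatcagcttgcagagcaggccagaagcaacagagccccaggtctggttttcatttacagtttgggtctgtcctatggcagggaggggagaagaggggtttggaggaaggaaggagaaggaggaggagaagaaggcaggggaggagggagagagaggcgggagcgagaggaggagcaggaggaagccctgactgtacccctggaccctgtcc
Col6a1: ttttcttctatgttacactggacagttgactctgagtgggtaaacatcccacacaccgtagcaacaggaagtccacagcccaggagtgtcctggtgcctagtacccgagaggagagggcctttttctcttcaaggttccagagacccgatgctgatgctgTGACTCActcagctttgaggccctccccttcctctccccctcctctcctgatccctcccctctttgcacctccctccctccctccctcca
TGACTCA began 90 bases before the Col6a1 start. The AP-1 motif in either reading, and the related TGACGTCA, which reads the same on both strands and does not contain the AP-1 motif, were searched for in the windows of 300 bases that run from 250 bases before to 50 bases after each start. The 4 genes had 6 such starts, 2 each for Col6a2 and Col18a1, and the window of Col6a1 was the only one of the 6 to hold any of these motifs. Of all 32851 promoter windows in the table, 5.2% held the AP-1 motif in either reading, and 6.96% held it or the related motif. A match of letters is not a binding site, and the sequence under the peaks themselves was not analysed here because no mm9 sequence was at hand.

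Each peak carries a score given by the authors, whose scale is not stated. It ranged from 50.01 to 1685.19 over the list, with a median of 101, and it serves here only to rank peaks within the list. The highest score in the collagen windows was 551.88, between Col6a2 and Col6a1, which was rank 154 of 10870. It was followed by 492.90 between Col6a1 and Col18a1 (rank 239), 457.22 in Col6a3 (rank 301) and 449.75 beyond the start of Col18a1 (rank 319). At the low end, the scores of 51.49, 51.66 and 51.81 in the Col6a3 window and 51.64 upstream of Col6a2 lay just above the list's lowest score.

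The first of the collagen VI chains, Col6a1, had 0 peaks in its body of 18.0 kb. The nearest peak lay just upstream, at 76192741 to 76193861 of chromosome 10, and scored 153.93 over 1121 bp. Its centre was 4.3 kb before the start and its near edge 3.74 kb, so it did not reach the promoter window with TGACTCA shown above. On the other side of the gene, the nearest peak was at 76155869 to 76157010 (score 291.46), 32.6 kb from the start and past the end of the gene. Between these 2 peaks 35.7 kb held none, and Col6a1 lay wholly in that stretch.

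Col6a2, which encodes the alpha 2 chain, likewise had 0 peaks in its body of 29.0 kb, while 4 peaks lay within 50 kb upstream of its start. The closest, at 76096651 to 76097494, was 10.1 kb upstream and scored 51.64, a score that 97.0% of the list exceeded. The next, at 76111036 to 76112418, was 24.7 kb upstream and had the score of 551.88, exceeded by 1.41% of the list. A neighbour only 4.54 kb further, at 76115698 to 76116845, scored 353.71, and a further one at 76131493 to 76132312, 44.9 kb upstream, scored 189.23. The order of the scores thus did not follow the distance from the gene: the peak nearest to Col6a2 was the weakest in score of the 4. No peak lay within 50 kb on the other side of the start.

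The 84.0 kb between Col6a2 and Col6a1 held these 4 peaks and the one at 76155869 to 76157010. That is 59.5 peaks per Mb (exact Poisson 95% interval 19.3 to 139), with a median score of 291. The interval covers counting error only, as do those below. In RefSeq on GRCm38.p6, no protein-coding gene lies between Col6a2 and Col6a1, and 2 long noncoding RNA genes, Gm51774 and Gm35608, do. These peaks lay upstream of Col6a2 and downstream of Col6a1, and the list does not say which gene, if either, they act on.

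**Figure D1:**
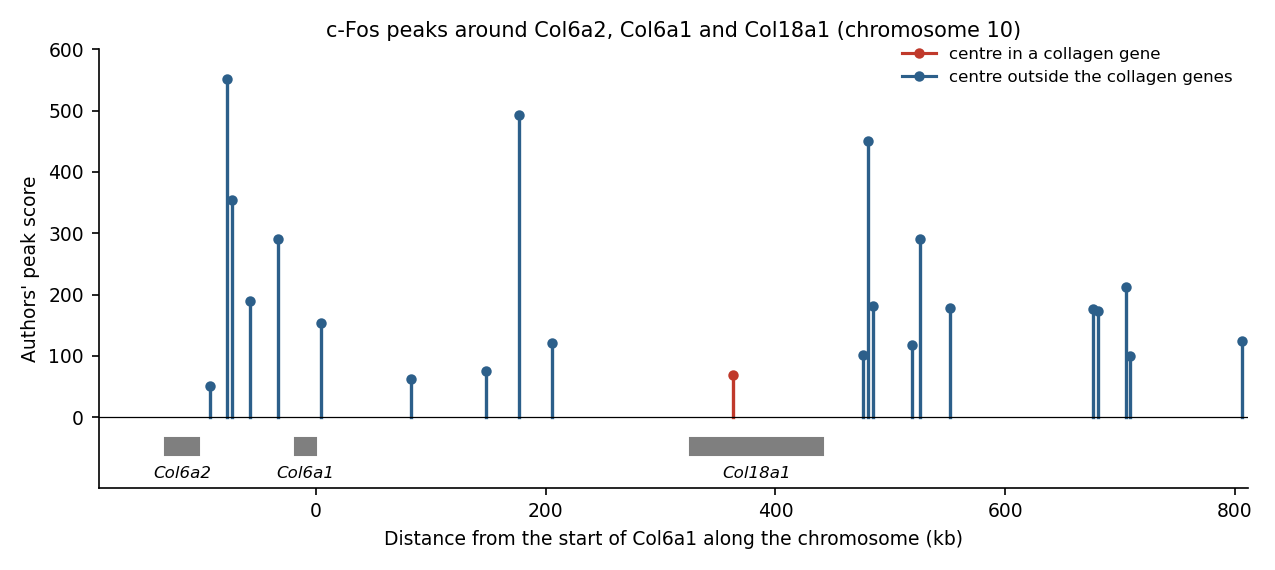
Each line is 1 c-Fos peak of the chromosome 10 window, placed by the distance of its centre from the start of Col6a1 in kb (horizontal axis, increasing coordinates to the right) and as tall as the authors' score (vertical axis); grey boxes are the collagen genes, which are transcribed from right to left. The boxes of Col6a2 and Col6a1 hold 0 peaks and that of Col18a1 holds 1, of score 69.57, while 21 peaks lie outside them.

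On the lower side of Col6a2 the list was empty for a long way. No peak lay in the 734 kb from 75362393 to 76096650, a stretch that holds the whole of Col6a2 and ends 9.65 kb upstream of its start. Of the distances between neighbouring peak centres in the list, 6.39% were longer than the one that spans it. The peak numbers in the list run on without a missing number, so no peak had been removed there after numbering. Whether reads could be placed in this stretch was not tested.

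Col6a3, whose alpha 3 chain is the longest of the 3, had another layout than Col6a1 and Col6a2. Its body of 78.0 kb held 3 peaks, and all 3 were in the 10 kb next to its start. The innermost, on chromosome 1 from 92731037 to 92732164, lay 9.4 kb into the gene and scored 457.22. The next, from 92735094 to 92736014, was 5.4 kb into the gene and scored 133.46. The third, from 92740289 to 92740933, had its centre 0.4 kb from the start and its edge 0.07 kb from it. It scored 51.81 and was 645 bp wide, against a list median of 949 bp. Given the rounding of the gene's limits, whether it covers the start itself cannot be told. This was the only one of the 4 starts with a peak within 1 kb, and it was among the lowest scores of the list, exceeded by 96.6% of peaks.

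Another peak, from 92744949 to 92745888, lay 4.4 kb upstream of Col6a3 and scored 95.29. Together these 4 peaks formed a run across the gene's start that was 14.9 kb long, with distances of 3.95, 5.06 and 4.81 kb between neighbouring centres. The score was highest inside the gene and lowest at the start. The rest of the gene held no peak: the stretch without peaks ran for 79.7 kb, from 92651343 to 92731036.

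**Figure D2:**
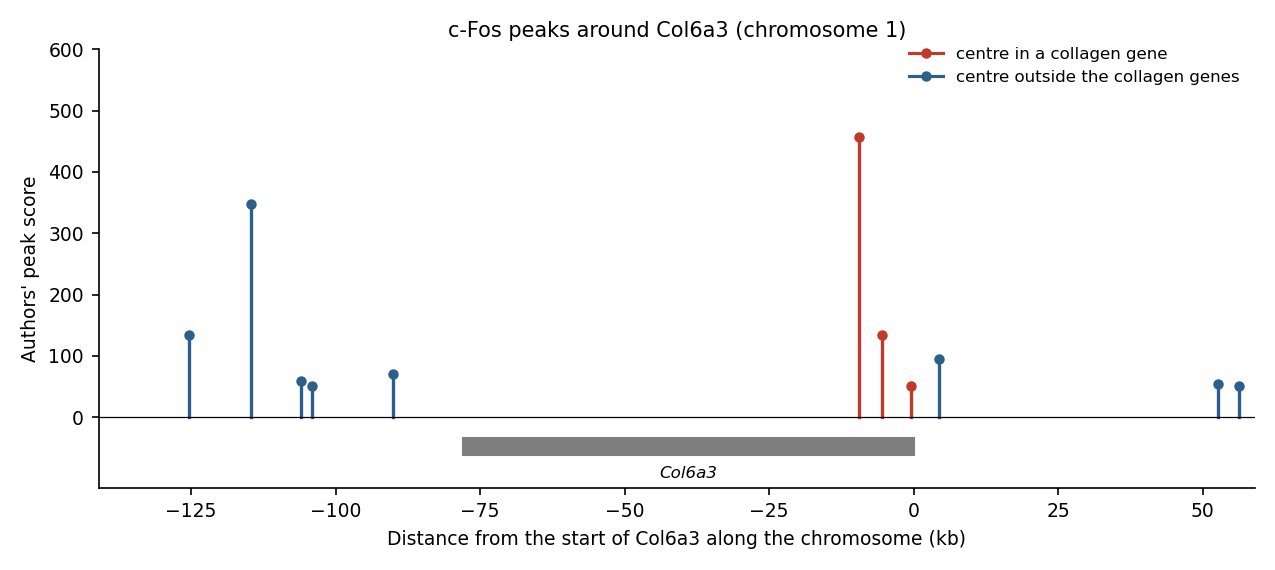
Each line is 1 c-Fos peak of the chromosome 1 window, placed by the distance of its centre from the start of Col6a3 in kb (horizontal axis) and as tall as the authors' score (vertical axis); the grey box is the gene, transcribed from right to left. The 3 peaks inside the gene sit at its start, at 9.4, 5.4 and 0.4 kb, and the tallest of the window, 457.22, is the innermost of these.

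Past the end of Col6a3, 5 peaks lay in the last 63.0 kb of the window. The highest, from 92625680 to 92626880, scored 347.32 and was 115 kb from the start of the gene. A peak 10.6 kb from it, from 92615130 to 92616193, scored 134.16. The other 3 scored 59.73, 51.49 and 70.00. Upstream, beyond the run at the start, the window held a pair of low peaks 52.6 and 56.2 kb from the start, with scores of 54.74 and 51.66. The protein-coding neighbours of Col6a3 in RefSeq on GRCm38.p6 are Cops8, a subunit of the COP9 signalosome, past its end and Mlph, melanophilin, upstream. Where the peaks lie relative to these genes in mm9 was not analysed here. Of the 3 peaks upstream of the gene within the window, 0 reached a score of 100, beside 50.7% of the whole list. The next peak upstream, 6.42 kb beyond the window's edge, scored 138.42.

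Col18a1 had 1 peak in its body of 115 kb, from 76551973 to 76552788 on chromosome 10. It scored 69.57, which 73.7% of the list exceeded, and lay 77.6 kb into the gene. RefSeq gives this gene a further start inside the gene, and the position of the peak relative to it in mm9 was not analysed here. The peak was isolated, with its neighbours 158 and 113 kb away.

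Upstream of Col18a1 the first peak was 35.0 kb from the start, and 3 peaks stood there close together. They ran from 76664550 to 76665455 (score 101.46), from 76669050 to 76670145 (score 449.75) and from 76673698 to 76674808 (score 181.36). Their centres were evenly spaced, 4.60 and 4.66 kb apart, and the middle one was the highest. This run was 10.3 kb long. No peak lay within 50 kb downstream of the start.

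**Figure D3:**
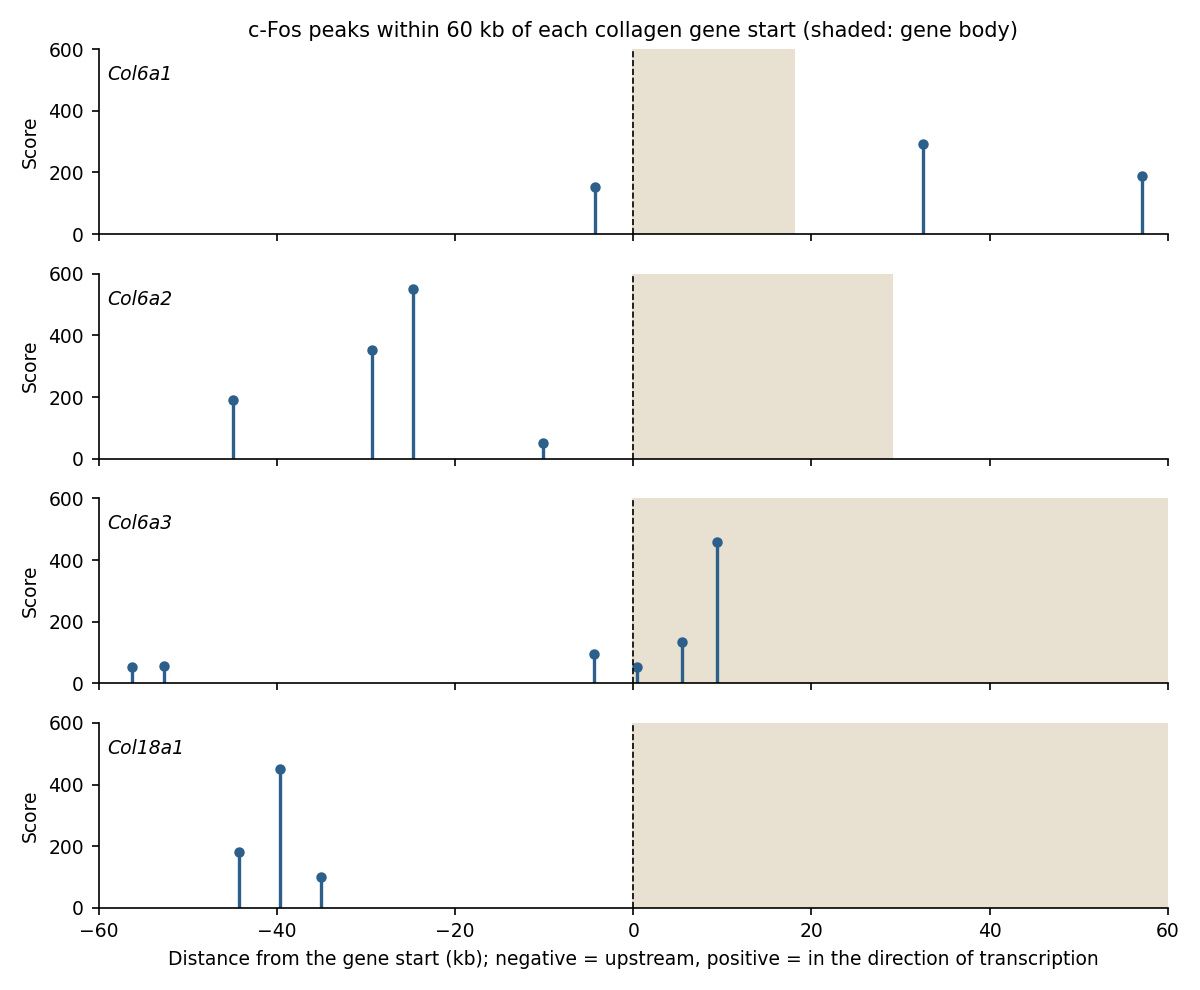
The c-Fos peaks within 60 kb of the start of each gene are drawn with the gene turned so that transcription runs to the right; the horizontal axis is the distance from the start in kb, the vertical axis the authors' score, and the shaded area the gene body. Col6a2 has 4 peaks and Col18a1 has 3 within 50 kb upstream and none in the shaded area shown, while Col6a3 has 3 inside the gene.

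Within 50 kb of the 4 starts there were 9 peaks on the upstream side and 4 on the downstream side. Col6a2 had 4 upstream and 0 downstream, Col18a1 had 3 and 0, Col6a1 had 1 and 1, and Col6a3 had 1 and 3. So within 50 kb Col6a2 and Col18a1 had peaks upstream only, Col6a3 had most of its peaks in the gene, and Col6a1 had few on either side. Beyond that distance, Col18a1 had 1 peak in its body, and Col6a3 had further peaks upstream and past its end. The nearest peak was 0.4 kb from the start for Col6a3, 4.3 kb for Col6a1, 10.1 kb for Col6a2 and 35.0 kb for Col18a1. All these distances are from the start at the high end of the gene. Peaks near the further RefSeq start inside Col18a1 were not analysed here. These are 4 genes in 1 library, and whether other genes have peaks at such distances was not analysed here.

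The 326 kb between Col6a1 and Col18a1 held 5 peaks, counting the one just upstream of Col6a1. The highest, from 76365179 to 76366601, scored 492.90 and was 1423 bp wide, the widest peak of both windows. It was 177 kb upstream of Col6a1 and belongs to no collagen gene by position. Around it were peaks with scores of 62.88, 75.48 and 121.53. RefSeq places 2 protein-coding genes between Col6a1 and Col18a1 on GRCm38.p6: Pcbp3, an RNA-binding protein of the poly(C) family, and Slc19a1, a folate carrier. Which of these peaks lie in those genes was not analysed here, since their mm9 positions were not at hand.

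The remaining 370 kb of the chromosome 10 window, beyond the start of Col18a1, held 11 peaks, among them the run of 3. All 11 scored at least 100, beside 50.7% of the whole list. The 11 peaks ranged in score from 100.10 to 449.75, with a median of 176. Another 6 of them stood in close pairs. The pair from 76707365 to 76715362 had scores of 117.20 and 290.53. The pair from 76864973 to 76870202 had scores of 176.39 and 173.49, and the pair from 76893214 to 76898190 had 212.32 and 100.10. The other 2 peaks scored 178.57 and 124.97. These pairs lay from 77.8 to 268 kb upstream of Col18a1. The first protein-coding gene on that side in RefSeq on GRCm38.p6 is Pofut2, a protein O-fucosyltransferase. Its mm9 position and those of genes past it were not at hand. Which of the 11 peaks lie before, in or past Pofut2 was therefore not analysed here.

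Gene bodies made up 16.2% of the chromosome 10 window and held 1 of its 22 peaks. They made up 39.0% of the chromosome 1 window and held 3 of its 11. Over both windows the gene bodies had 16.7 peaks per Mb (exact Poisson 95% interval 4.54 to 42.7) and the rest had 30.2 (20.2 to 43.4). These intervals treat peaks as independent, although 20 peaks stood in groups within 10 kb of each other. The windows were also chosen with the peaks in view, so whether the 2 densities differ was not tested. Among the 4 peaks in gene bodies the scores were 51.81, 69.57, 133.46 and 457.22. The 29 peaks outside ranged from 51.49 to 551.88 with a median of 134, so the scores of the 2 sets overlap along nearly their full range.

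The share of high scores was not the same in the 2 windows. In the chromosome 10 window 18 of 22 peaks scored at least 100, and in the Col6a3 window 4 of 11 did, beside 50.7% of the whole list. A score of at least 200 was reached by 7 of 22 and by 2 of 11, beside 18.6% of the list. The median score was 175 around Col6a2, Col6a1 and Col18a1 and 70.0 around Col6a3, on either side of the list's 101. The ranges overlapped, from 51.64 to 551.88 and from 51.49 to 457.22. The Col6a3 window was thus dense in peaks of low score, with a few high ones.

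Peaks were close to each other in both windows. The chromosome 10 window held 22 peaks. For comparison, chromosomes 1 to 19 and X were cut from first to last peak into side-by-side windows at fixed positions. Windows at other positions were not counted. Of the 2565 such windows of 1000 kb, 11 reached this number, the chromosome 10 window included, and the median was 3. The Col6a3 window held 11, reached by 5 of 12755 windows of 200 kb, itself included, and the median was 0. In peaks per Mb this was 22.0 (exact Poisson 95% interval 13.8 to 33.3) and 55.0 (27.5 to 98.4), beside 4.51 on chromosomes 1 to 19 as a whole. A neighbour with its centre within 10 kb was present for 11 of 22 peaks and for 9 of 11, beside 27.3% of the list. Within 50 kb it was 19 of 22 and 11 of 11, beside 65.5%. With the density chosen by the rule, nothing follows from these values for collagen genes as such. Within 10 kb of each other, 20 peaks formed 8 groups: 5 groups of 2, 2 of 3, and the run of 4 at the start of Col6a3. The pair at the high edge of the Col6a3 window goes on past it, as the next peak is 9.21 kb away. In the run of 4, the high peak of 457.22 stood beside peaks of 133.46, 51.81 and 95.29. A high peak also stood beside lower ones in the groups with 347.32 and 449.75, while in the pair between Col6a2 and Col6a1 both were high (551.88 and 353.71).

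Widths ranged from 645 to 1423 bp. The median was 1038.5 bp in the chromosome 10 window and 896 bp in the Col6a3 window, beside 949 bp in the list. In this list peaks of higher score are wider, so each was set against the other peaks with a score within 10% of its own. By that measure 11 of 22 peaks were wider than the median of such peaks in the chromosome 10 window and 4 of 11 in the Col6a3 window. The 4 peaks in gene bodies were each narrower, with 1128 bp against 1162 bp for the high peak in Col6a3 and 645 bp against 832 bp for the peak at its start. The peaks of 552 and 493 were wider, with 1383 bp against 1234 bp and 1423 bp against 1191 bp. The farthest below was the peak of 189.23 upstream of Col6a2, with 820 bp against 1038.5 bp.

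**Figure D4:**
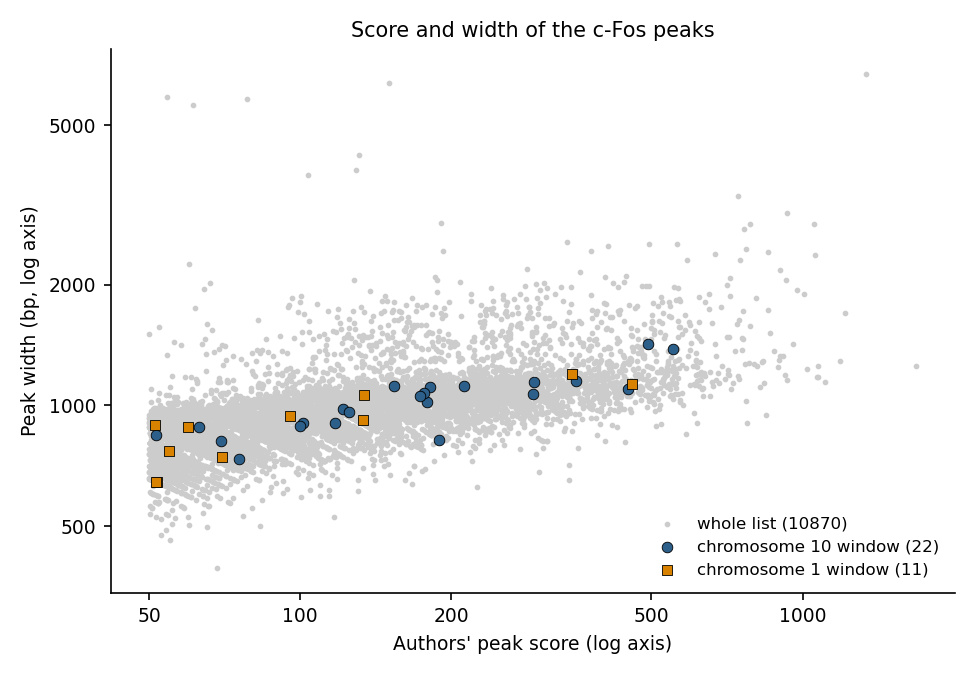
Each point is 1 c-Fos peak, with the authors' score on the horizontal axis and the width in bp on the vertical axis, both log axes; grey points are the 10870 peaks of the list, circles the 22 of the chromosome 10 window and squares the 11 of the Col6a3 window. The members lie within the band of the list, and 7 of the 11 squares are at scores under 100.

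The nearest peaks that the windows left out were as follows. On chromosome 10, the peak before the window ran from 75361375 to 75362392 (score 202.83), 638 kb outside it, and the peak after it from 77085734 to 77086506 (score 72.74), 86.1 kb outside. On chromosome 1, the peak before the window ran from 92574014 to 92574964 (score 132.98), 25.5 kb outside, and the peak after it from 92805853 to 92806984 (score 138.42), 6.42 kb outside. Inside, the first and last peaks scored 51.64 and 124.97 on chromosome 10 and 134.16 and 51.66 on chromosome 1. The edge of the Col6a3 window thus cut through a row of peaks, while the chromosome 10 window began after the long empty stretch.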

How the data were processed

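The deposited list gives, for the c-Fos ChIP library, a sequence name, start, end, peak name and score for each peak, in mm9. The score is a value per peak deposited by the authors, with no scale stated. Per the submitters' processing notes, CASAVA 1.8.2 and MACS 1.4.1 were used, with mm9, in roles not stated, and peak names carry the MACS prefix. Aligner, peak threshold and control are not given in the sources. Read counts were not at hand, so the depth is unknown.

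Starts were converted to 1-based positions, and a peak was placed by its centre. Gene limits came from the rule that defined the windows; no coordinate was converted between builds. RefSeq tables (GRCm38.p6) gave names, gene order, strand and promoter sequences, and 4 of 4 genes matched by symbol. Members, windows and gene lists were chosen with earlier results of these data known. The text names the 4 genes, genes next to them, and every peak of both windows. With 1 ChIP library no test was made and no error between cultures can be given. Density intervals are exact Poisson 95% intervals. Placement was tested on simulated peaks planted inside the 4 genes. None was planted between the genes or at a gene's limit, so placement there was not tested. The alternatives were to keep scores of 100 or more, to drop the widest 5% (from 1312 bp), any overlap with a gene, genes widened by 5 kb, a distance of 50 kb, and adding TGACGTCA. The tools were pandas 2.3.3, numpy 2.4.6 and scipy 1.17.1 under Python 3.11.15, with figures from matplotlib 3.10.9.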

Additional observations from a re-analysis of the deposited data

How the results depend on the processing

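Of 35 recomputed values, 29 stayed within 1.5 times a count or within the interval of a density, and 6 moved. A score of at least 100 took away the peak in Col18a1 (0 in place of 1). Around Col6a3 it left 2 peaks outside the gene in place of 8, and a density of 20.0 per Mb in place of 55.0. A neighbour within 10 kb was present for 2 of 4 peaks in place of 9 of 11. The same filter left 5507 of the 10870 peaks of the whole list, whose density and share with a neighbour at that setting were not analysed here. With the genes widened by 5 kb, the peak upstream of Col6a1 counted as inside it (1 in place of 0). A distance of 50 kb gave 19 peaks with a neighbour in the chromosome 10 window in place of 11, beside 65.5% of the list. Filters on score and wider limits produce such changes by construction. Col6a2 had 0 peaks in its body under each of the 4 alternatives tried for it, but none of them could change this. The filters only remove peaks, and no peak lay within 5 kb of the gene. The filters could not move the 0 of Col6a1 either, so the 29 include values fixed in advance. No listed peak scored below 50.01, and the rule by which peaks entered the list is not known. A gene with 0 peaks is thus one with no listed peak, and whether it holds weaker or unlisted sites was not tested. No paired analysis was possible because there was only 1 precipitated library.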
